A study of Mus musculus with 3 samples.

Results

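Integrins and the proteins of focal adhesions were examined as targets of FOXF1 binding in the fetal mouse lung, with 36 genes in all among 21887 protein-coding genes. The set holds 25 integrin subunits, 17 of them α and 8 of them β, and 11 proteins that gather at their cytoplasmic tails. Genes were taken as listed by symbol, and every symbol was found in the RefSeq table of mouse genes. FOXF1 is a forkhead transcription factor of the lung mesenchyme and its vessels. Its binding was profiled by ChIP-seq, the sequencing of DNA precipitated with an antibody to FOXF1, from whole lung of wild-type C57BL/6 embryos at embryonic day 18.5. There were 2 biological replicates, each a pool of 3 lungs, and a 2% input control of the same stage, which entered only through the authors' peak calls. The labels name no transgene or treatment. Whole lung was used, so the cell type behind a site is not known, and fewer bound cells cannot be told apart from less binding per cell.

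The authors' lists of peak summits held 107378 positions in replicate 1 and 61172 in replicate 2 on chromosomes 1 to 19, X and Y. Summits of the 2 replicates that were mutual nearest neighbours, no more than 100 bp apart, were joined into a shared site, which gave 51013 of them. A site counted for a gene when it lay inside the gene, or within 100 kb with an end of that gene the nearest protein-coding gene end. Scores are the authors' −log10 significance at the summit, given below for replicate 1 and then replicate 2. A score grows with sequencing depth, and the depth is unknown here. The place of a summit in its own list is therefore given as well, and "the top 1%" means the 1% of summits with the highest scores in that list. The highest site of a gene is the one with the best mean of its places in both lists. Positions are 1-based on mm10.

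Integrins are heterodimers of an α and a β subunit that hold cells to collagens, laminins, fibronectin and other matrix proteins, and to counter-receptors on other cells. On the cytoplasmic side, talin and kindlin bind the β tail, and vinculin, α-actinin, paxillin, focal adhesion kinase and the complex of integrin-linked kinase and parvin join the receptor to actin and to signalling. In the lung, integrins fix epithelium and endothelium to their shared basement membrane, anchor smooth muscle and fibroblasts, and, through Itgav-containing receptors, release TGF-beta from its latent form.

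FOXF1 sites were found at most of these genes, and the count per gene ran from 0 to 29. Of the 36 genes, 29 had at least 1 shared site, beside 60.7% of all protein-coding genes. Together the genes held 272 shared sites, each counted once. The median was 5.5 sites per gene, beside 1 over all protein-coding genes. At least 10 sites were held by 11 of the 36, beside 4.89% of all protein-coding genes. No test was run on these counts, because the genes were chosen with results of these data known.

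Region size went with the counts and differs between the sets. The members are long, with a median of 63.2 kb against 17.2 kb for all protein-coding genes. The region that counts for a gene, its own span plus the flanks nearest to it, had a median of 85.0 kb at the members and 49.5 kb at all protein-coding genes. Per 100 kb of that region the members had a median of 4.38 sites, against 1.55 for all protein-coding genes, and 28 of the 36 lay above that value. Spearman's rho between sites and region size was 0.72 across the 36 members and 0.42 across all protein-coding genes. Genes are not independent replicates, and neighbours share sites, so both values are descriptions.

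**Figure D1:**
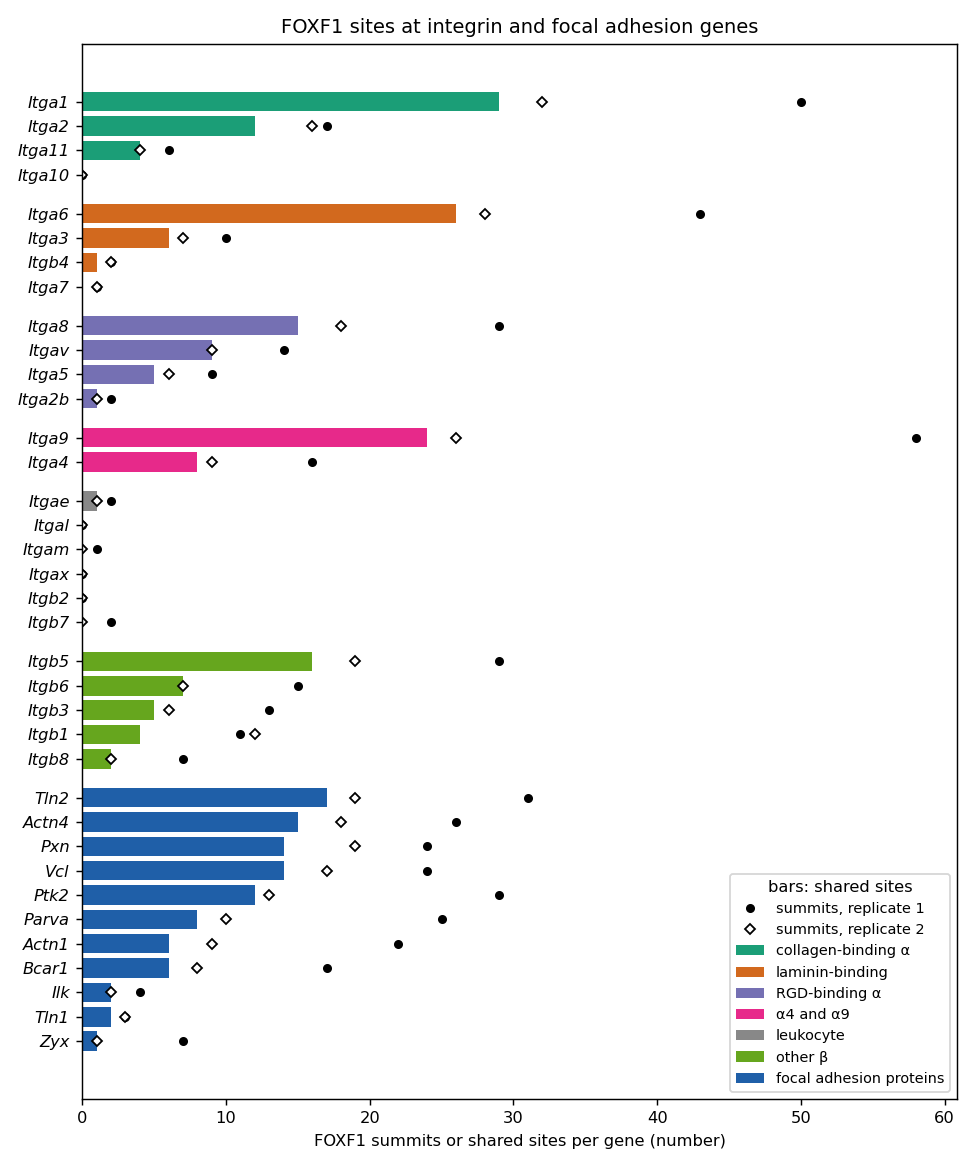
Shared FOXF1 sites (bars), replicate 1 summits (filled circles) and replicate 2 summits (open diamonds) for each of the 36 genes, grouped by role; the horizontal axis is a number per gene. Itga1, Itga6 and Itga9 have the longest bars, at 29, 26 and 24 shared sites. Of the 6 leukocyte genes, 5 have none, beside 39.3% of all protein-coding genes.

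The replicates ordered the sites of these genes in a similar way. Their regions held 549 summits in replicate 1, of which 49.5% were paired, and 325 in replicate 2, of which 83.7% were paired. Over the whole lists the paired shares were 47.5% in replicate 1 and 83.4% in replicate 2. Across the 272 sites the scores of the replicates had a Spearman's rho of 0.91, and across all shared sites it was 0.88. The typical member site was not a high one. The median score was 48.1 in replicate 1 and 19.1 in replicate 2 at the members, beside 44.1 and 19.1 over all shared sites.

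Very high sites were present at a few members. In the top 1% of both lists were 4 of the 272 sites (1.47%), beside 1.08% of all shared sites. They belonged to Itga2, Vcl, Itgb5 and Itga6, so that 4 of the 36 genes had such a site, beside 1.77% of all protein-coding genes. Within the top 5% of both lists were 15 sites (5.51%, beside 5.31% of all shared sites), at 9 genes, beside 7.38% of all protein-coding genes. The other 5 of these genes were Itga1, Itga8, Itgav, Itgb1 and Actn4. Of the 15 sites, 11 lay over 10 kb from either end of their gene and 2 lay within 1 kb of an end.

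**Figure D2:**
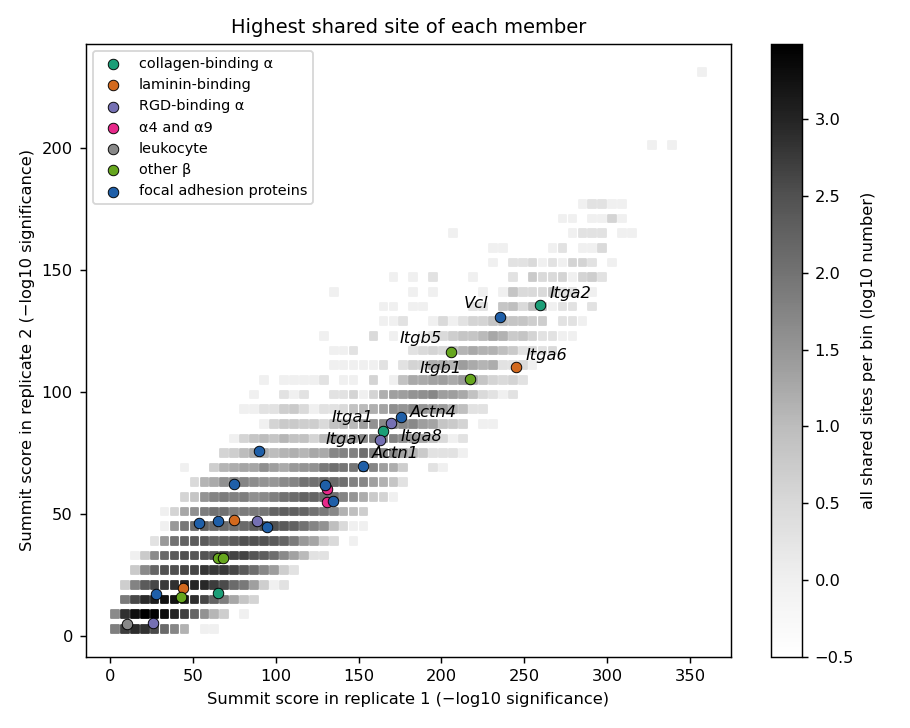
Score of the highest shared site of each of the 29 genes with a site, replicate 1 on the horizontal and replicate 2 on the vertical axis (both the authors' −log10 significance), over all 51013 shared sites binned in grey (log10 number per bin). Itga2 is highest at 259.5 and 135.4, followed in replicate 2 by Vcl at 130.7, and Itgae is lowest at 10.5 and 5.0.

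The collagen receptors were led by a tandem pair. Itga1 and Itga2 encode the α subunits of the main collagen and laminin receptors of mesenchyme, endothelium and epithelium, and they are neighbours on chromosome 13, from 114958079 to 115101964 and from 114833081 to 114932100. Together they held 41 of the 45 sites of the collagen-binding group. Itga1 had 50 summits in replicate 1, 32 in replicate 2 and 29 shared sites, the largest number of any member, at 11.29 per 100 kb. Of all protein-coding genes, 94.1% had a lower density than Itga1.

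The sites of Itga1 were split between the gene and the flank ahead of it. The gene lies on the minus strand, and 15 sites lay inside it, 13 upstream of its 5′ end and 1 beyond its 3′ end. The flanks that could count were unequal. Of the region of 256.9 kb, the gene takes 143.9 kb and the upstream flank most of the rest. Beyond the 3′ end the neighbouring gene Itga2 cuts the flank short, so the flank counts do not compare the sides. The highest site, at 115171572, lay 69.6 kb upstream with scores of 164.5 and 84.2. The next, at 115042834, lay inside with 152.7 and 72.9. A site at 115101760, 204 bp inside the 5′ end, had 112.7 and 60.3. Of the 29 sites, 10 also counted for Pelo, a ribosome rescue factor gene that lies inside Itga1.

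Itga2, whose product pairs with Itgb1 as a collagen receptor of platelets and epithelium, had 17 summits in replicate 1, 16 in replicate 2 and 12 shared sites, all inside the gene. Its highest site, at 114833520, was also the highest of all 272, with scores of 259.5 and 135.4, in the top 0.11% and 0.27% of the lists. That site lay at the far end of the gene, 439 bp inside the 3′ end and 98580 bp from the annotated start. The nearest other protein-coding gene, Mocs2, ended 4.1 kb away. Close to the start the nearest site, 802 bp inside, had 127.4 and 58.3. Another, 14.3 kb inside, had 159.2 and 65.9, which is in the top 5% of replicate 1 and outside it in replicate 2, at 6.38%.

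The other collagen-binding subunits had few sites. Itga11, a receptor of fibroblasts, had 4 shared sites in a region of 180.5 kb, the highest with scores of 65.1 and 17.6. Itga10, a receptor of cartilage, had no shared site by the rule, and no summit of either list counted for it.

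Among the laminin receptors, Itga6 had the most sites, in a region of 178.9 kb. Itga6 encodes the α subunit that binds basement membrane laminins in epithelium and endothelium, and spans chromosome 2 from 71786886 to 71858427. It had 43 summits in replicate 1, 28 in replicate 2 and 26 shared sites at 14.53 per 100 kb, a density above that of 96.5% of protein-coding genes. Itga3, with a similar ligand, had 6 shared sites in a smaller region of 55.6 kb. At 10.8 per 100 kb, its density was also above that of 93.5% of protein-coding genes. Itgb4, the β partner of Itga6 in hemidesmosomes, had 1 shared site. Itga7, a laminin receptor of muscle, had 1 summit in each replicate and no shared site.

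The highest sites of Itga6 lay to the left of the gene. In all, 12 sites lay inside the gene, 13 to its left, 8 of them within 35 kb, and 1 to its right. The flanks that could count were unequal. Of the region of 178.9 kb, the gene takes 71.5 kb and the left flank most of the rest. On the right the neighbouring gene Pdk1 cuts the flank short, so the 2 flank counts do not compare the sides. The highest site, at 71779571, was 7.3 kb to the left of the gene with scores of 245.2 and 110.1. Further left followed 71771891 with 171.4 and 92.2 and 71756973 with 179.0 and 98.4. All 3 were in the top 5% of both lists, and the nearest other gene to the highest one, Pdk1, lay 93.6 kb away. Inside the gene no site scored above 81.0 in replicate 1 or above 55.3 in replicate 2, below each of these 3. The sources used here give no strand for Itga6, so left and right stand for lower and higher positions.

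At Itga3, the α subunit that binds laminins of the epithelial basement membrane, the highest shared site sat at the edge of the gene. It lay at 95076847, 3 bp outside the 5′ end, with scores of 74.8 and 47.5. A site 19.9 kb outside was higher in replicate 1 and lower in replicate 2, with 83.6 and 31.4. The pairing limit mattered here. A replicate 1 summit at 95079628 with a score of 131.9 had its nearest replicate 2 summit, scoring 59.9, 101 bp away, and was therefore not a shared site. The widest pair that still counted at any member, at Ptk2, was 100 bp apart and had 17.4 and 3.6.

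**Figure D3:**
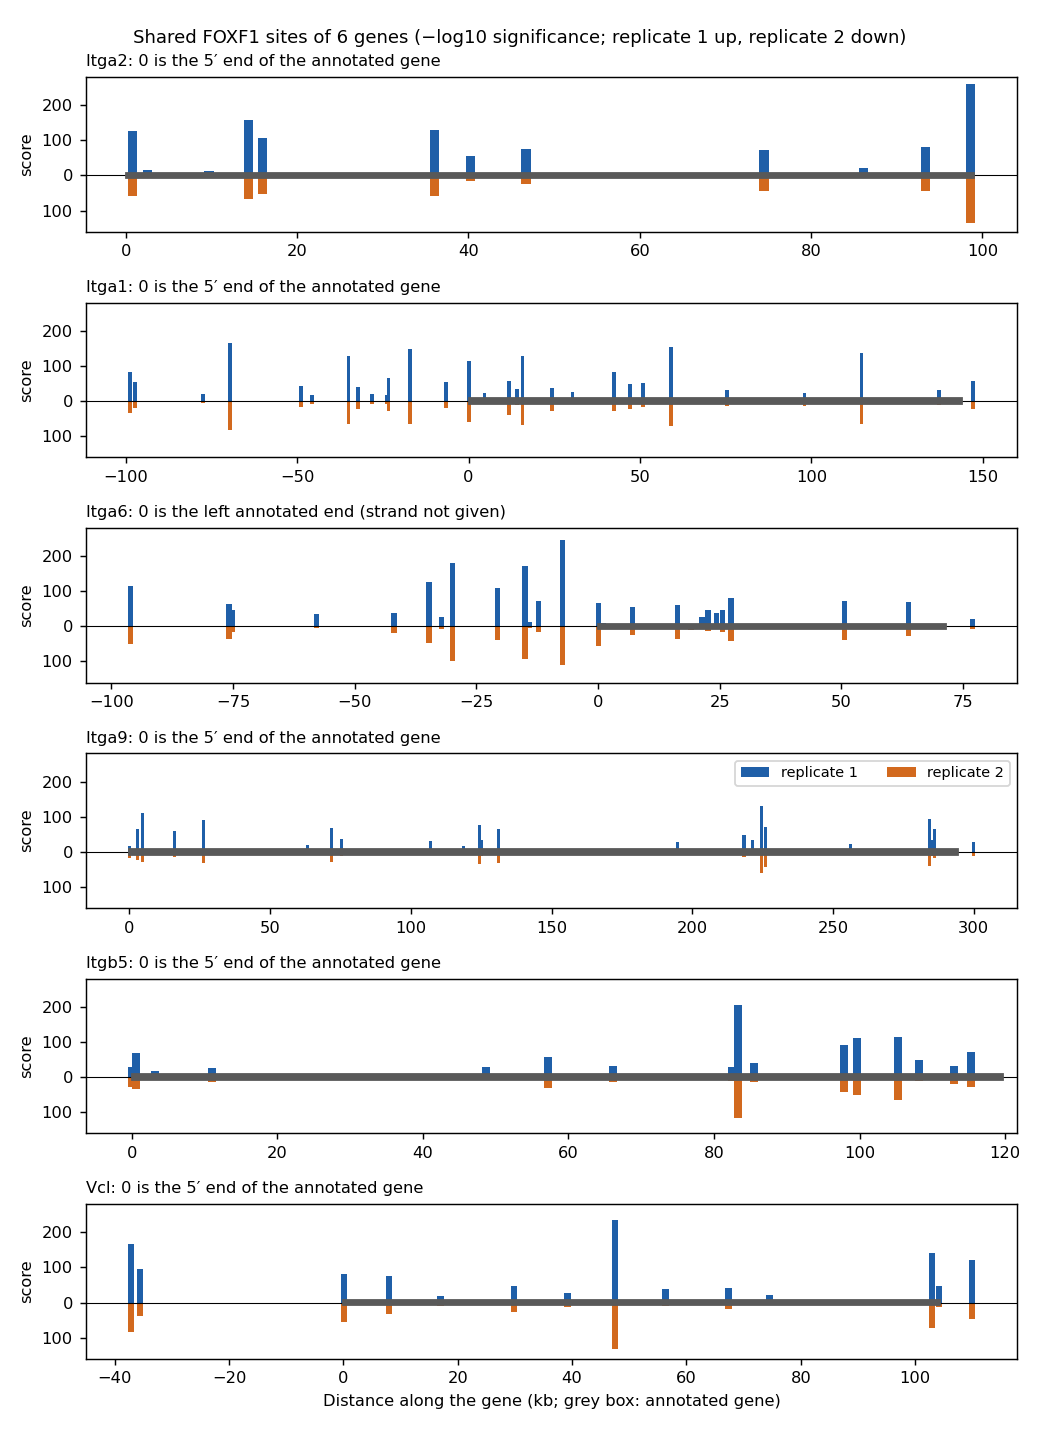
Shared sites along 6 genes, by distance in kb from the 5′ end of the annotated gene (for Itga6, whose strand is not given, from its left end); bars up are replicate 1 scores and bars down replicate 2 scores (−log10 significance), and the grey box is the gene. The highest bar of Itga2 stands at the 3′ end, those of Itga6 and Itga1 stand outside the gene, and those of Itgb5 and Vcl stand deep inside.

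The 4 α subunits that recognise the RGD motif of fibronectin, vitronectin and latent TGF-beta all had shared sites, 30 in total. The share over all protein-coding genes was 60.7%. Itga8, a receptor for nephronectin in smooth muscle and mesenchyme, had 29 summits in replicate 1, 18 in replicate 2 and 15 shared sites. Of these, 8 lay beyond the 3′ end, and the highest, at 12023609 on chromosome 2, lay 83.0 kb from that end with scores of 169.6 and 87.1. The site closest to the annotated start, 28 bp inside, was far lower in both replicates, with 19.2 and 14.0.

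Itgav, the common α subunit of the TGF-beta-releasing integrins, had 14 summits in replicate 1, 9 in replicate 2 and 9 shared sites. Its highest sites were neighbours inside the gene, at 83740730 with 163.0 and 80.3 and at 83742411 with 146.2 and 66.5. Another lay 22 bp upstream of an annotated start with 55.5 and 36.2. Itga5, the α subunit of the classical fibronectin receptor, had 5 shared sites in a region of 42.4 kb, a density of 11.78 per 100 kb, with the highest 17.2 kb upstream at 88.5 and 47.0. Itga2b, the platelet subunit, had 1, low in both lists at 25.9 and 5.6.

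Itga9, whose product binds tenascin C, osteopontin and VCAM1, had 58 summits in replicate 1, 26 in replicate 2 and 24 shared sites, 23 of them spread through its 294.3 kb. None was in the top 5% of both lists, and the highest, at 118831460 on chromosome 9, had 131.1 and 60.3. Itga4, a receptor for VCAM1 and fibronectin, had 8 shared sites, of which 4 lay within 5 kb of an end. Its highest lay 2.6 kb inside the start with 131.1 and 54.8, and a further one lay 553 bp upstream with 58.9 and 19.1.

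The 6 genes grouped here as subunits of leukocytes were nearly empty. Only 1 of the 6 had a shared site, beside 60.7% of all protein-coding genes. The group does not hold Itga4, the VCAM1 receptor described above, which had 8 shared sites. Nor does it hold Itgad, an integrin subunit listed with the wider pathway below, which had 1 shared site with 19.5 and 9.2. Itgal, Itgax and Itgb2 had no summit in either list, Itgam had 1 and Itgb7 had 2 in replicate 1 alone, and Itgae had 2 in replicate 1 and 1 in replicate 2. These genes encode the receptors by which lymphocytes, neutrophils and macrophages hold to endothelium and epithelium. The single shared site among all 6 genes, in Itgae, scored 10.5 and 5.0, lay 23 bp from an end of Haspin, a gene inside it, and counted for both. A site 1752 bp from an end of Itgb7 counted for Rarg. By comparison, 17 of the other 19 integrin subunits had a shared site, 174 in all, beside 60.7% of all protein-coding genes. The regions were not equally long, with a median of 52.0 kb for the leukocyte genes and 127.3 kb for the other 19. Over all protein-coding genes the median was 49.5 kb.

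The remaining 5 β subunits all had sites, beside 60.7% of all protein-coding genes, in unequal numbers. Itgb5, which pairs with Itgav as a vitronectin receptor, had 29 summits in replicate 1, 19 in replicate 2 and 16 shared sites, all inside its 119.7 kb on chromosome 16. Its highest, at 33913006, had 205.5 and 116.3, and 9 of the 16 lay in the last 40 kb of the gene. Itgb6, the epithelial partner of Itgav, had 7 shared sites, the highest with 68.3 and 32.0. Itgb3, the partner of Itgav and Itga2b, had 5, with 65.1 and 32.0. Itgb8, another TGF-beta-releasing partner of Itgav, had 2 over a region of 249.7 kb, with 43.1 and 16.2, which is 0.80 per 100 kb and below the 1.55 of the median protein-coding gene.

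Itgb1, the β subunit shared by most matrix receptors, had few shared sites, 2 of them high. There were 11 summits in replicate 1, 12 in replicate 2 and 4 shared sites, in a region of 238.0 kb on chromosome 8. The highest, at 128698181, lay 12.5 kb inside the gene with 217.1 and 105.4. Another, at 128685597, lay 57 bp upstream of the start with 133.6 and 88.2, and both were in the top 5% of the lists. The other 2 had 17.7 and 5.1, and 32.7 and 16.7. A further place, to the left of the gene, was high in each list without counting as shared. Summits there with 147.5 in replicate 1 and 99.6 in replicate 2 lay 148 bp apart, at 128654847 and 128654699. At a pairing limit of 200 bp they would pair, and Itgb1 would have 7 shared sites.

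The stretch ahead of Itgb1 is shown because a site in the top 5% of both lists falls within it. It is the RefSeq promoter window on GRCm38.p6, plus strand, from 250 to 1 bases before the start (chr8:128685404-128685653), with the only match to any motif searched, GGAATG of the TEAD factors, in capitals.
Itgb1: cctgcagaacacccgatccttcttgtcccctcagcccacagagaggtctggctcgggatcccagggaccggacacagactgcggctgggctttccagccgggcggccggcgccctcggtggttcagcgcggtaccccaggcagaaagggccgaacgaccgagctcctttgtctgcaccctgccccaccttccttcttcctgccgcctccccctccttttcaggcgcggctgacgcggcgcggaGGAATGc

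All 11 cytoplasmic proteins had shared sites, beside 60.7% of all protein-coding genes. They held 97 in total, with a median of 8 per gene. Their median region was 79.5 kb, against 49.5 kb for all protein-coding genes. Talins, which bind the β tail and switch integrins on, differed from each other. Tln2, expressed in muscle and brain among other tissues, had 31 summits in replicate 1, 19 in replicate 2 and 17 shared sites in a region of 541.8 kb, with the highest at 95.0 and 44.6. Tln1, the general form, had 3 summits in each list and 2 shared sites in a region of 35.1 kb, with the highest at 27.8 and 17.3. Per 100 kb the order was the other way round, at 3.14 for Tln2 and 5.70 for Tln1.

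Vcl encodes vinculin, which couples talin to actin under load. It had 24 summits in replicate 1, 17 in replicate 2 and 14 shared sites on chromosome 14 between 20929383 and 21033676 and its flanks. The highest, at 20976937, lay 47.5 kb inside with 235.3 and 130.7, in the top 0.26% and 0.34% of the lists. Others in the top 5% of both lists lay 37.2 kb upstream, with 168.3 and 84.9, and 1.3 kb from the 3′ end, with 140.1 and 72.3. At the start, 57 bp inside, a site had 82.5 and 55.3. Of the 14 sites, 6 also counted for Ap3m1, which overlaps the 3′ end.

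The α-actinins, which crosslink actin filaments at adhesions, also differed. Actn4 had 26 summits in replicate 1, 18 in replicate 2 and 15 shared sites, all inside the gene, or 18.87 per 100 kb of its 79.5 kb region. Its highest lay 18.7 kb inside with 175.6 and 89.8, and 6 of the 15 also counted for Capn12, whose end overlaps the 3′ end of Actn4 and was the nearest gene end. Actn1 had 22 summits in replicate 1, 9 in replicate 2 and 6 shared sites over 92.9 kb. Its highest scored 152.7 and 69.8 and fell just outside the top 5%, at 5.33%, in replicate 2.

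Scaffolds and kinases of the adhesion plaque differed in where their highest site lay. Pxn, the scaffold paxillin, had 24 summits in replicate 1, 19 in replicate 2 and 14 shared sites in a region of 66.6 kb, or 21.02 per 100 kb, above 98.6% of protein-coding genes. Its highest scored 129.5 and 61.8. Neighbours that counted for other genes were a site 1597 bp outside Pxn with 126.4 and 87.1, which counted for Sirt4, and a site 3404 bp outside with 135.1 and 78.7, which counted for Rplp0. Ptk2, focal adhesion kinase, had 29 summits in replicate 1, 13 in replicate 2 and 12 shared sites, the highest 9.1 kb outside with 134.8 and 55.3. Parva, or α-parvin, had 8, the highest 0.6 kb inside an end with 65.5 and 47.3. Bcar1, the p130Cas adaptor, had 6, the highest 16 bp inside the start with 53.8 and 46.5, while a site further inside was higher in replicate 1, with 64.1 and 33.7.

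The shortest genes had few sites, each with 1 close to an annotated start. Ilk, integrin-linked kinase, spans 6.3 kb and had 2 shared sites with 90.0 and 75.8, at 105736717 on chromosome 7, and with 93.8 and 50.4. Both also counted for Rrp8, which overlaps its 5′ end. Zyx, zyxin of stress fibres, had 7 summits in replicate 1 and 1 in replicate 2, which left 1 shared site 244 bp inside an annotated start with 74.9 and 62.4. These small regions make a density per 100 kb unstable, such as the 21.07 of Ilk from 2 sites.

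**Figure D4:**
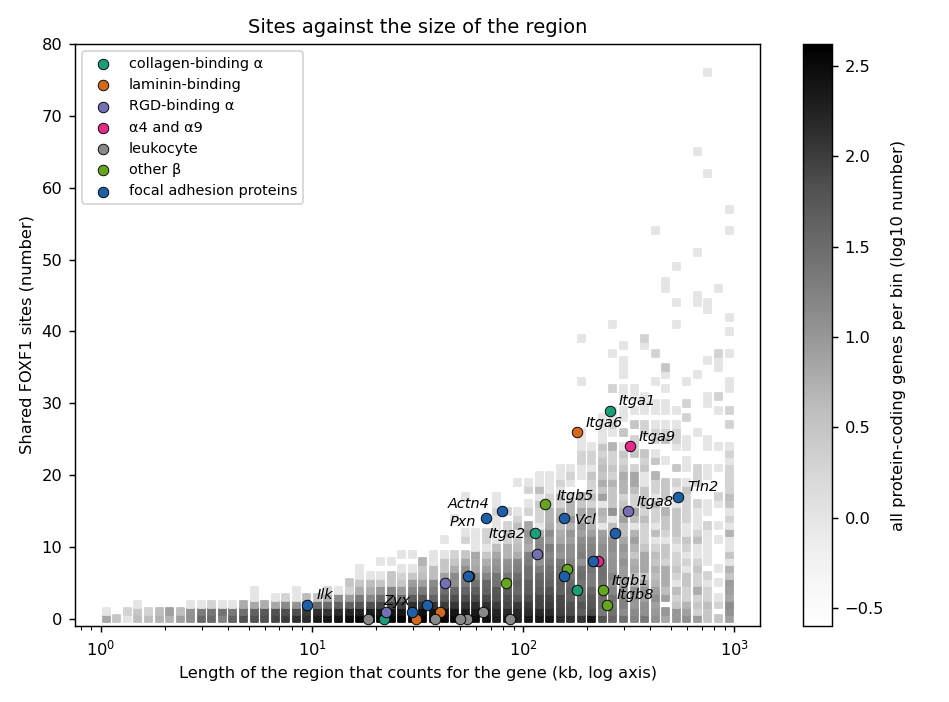
Shared sites per gene (vertical axis) against the length of the region that counts for the gene (kb, log axis), with the 36 genes coloured by role over all protein-coding genes binned in grey (log10 number per bin; regions longer than the axis are drawn in the last bin). Pxn has 14 sites in 66.6 kb and Itga6 has 26 in 178.9 kb, while Itgb8 has 2 in 249.7 kb.

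Sites near gene ends and sites elsewhere differed in how their scores compared between the replicates. Within 1 kb of an end of their gene lay 25 of the 272 sites (9.2%), beside 19.5% of all assigned sites. For the members only the ends of the member itself were used. Over all assigned sites, a site that counted for more than 1 gene could be near an end of any of them. Gene length was not matched between these shares. At the 25 member sites the score in replicate 2 was a median of 0.69 of that in replicate 1 (quartiles 0.52 and 0.83). For the other 247 sites the ratio was 0.41 (0.33 and 0.49). The same ratios, 0.69 and 0.41, were found over all assigned sites. Median scores at the members were 65.1 and 46.5 near ends, and 46.9 and 17.6 elsewhere. The cause was not tested.

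By gene, 27 of the 36 lay with an end at most 5 kb from a shared site, beside 54.4% of all protein-coding genes, and 22 at most 1 kb from one, beside 41.5%. The 27 include genes whose nearby site counted for a neighbour, such as Itgb7. Starts and strands were available from RefSeq for 25 of the 36 genes. At 15 of these a site of the gene lay within 1 kb of an annotated start, and 141 of their 188 sites lay over 10 kb from one. Neither share was worked out over all genes or all sites, so whether these counts are unusual is not known.

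Promoter sequence could be read only in RefSeq windows of 250 bases before and 50 after a start, of which the 25 genes had 29. A shared site lay in 9 of the 29 windows (31.0%), beside 15.7% of all 32851 windows. All windows come from 27025 genes, a wider set than the 21887 protein-coding genes used above, and they also serve for the motif shares. The forkhead motif GTAAACA, searched on both strands, was in none of the 29 and in 3.65% of all windows. Its core TAAACA was in 2 of the 29 (6.9%), at Itgav and Itgb6, and in 13.44% of all windows. The core lies within the longer motif, so any match to the longer one would count for both. No match says only that these letters are not in these windows, while most member sites lie outside them.

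Matches to motifs of other factors were few in number, and their shares were not tested. The CArG box of serum response factor was in 2 of the 29 windows (6.9%, Vcl and Itgb6), beside 1.63% of all windows. TGANTCA of AP-1 was in 5 (17.2%), beside 7.81%. CCGGAAG of ETS factors was in 3 windows (10.3%), at Itga3 and Ilk, beside 8.86% of all. GGAATG of TEAD factors was in 4 (13.8%), beside 14.66%. The stretch ahead of Vcl is shown because it holds the CArG box and a site lies 57 bp beyond the annotated start. It runs on the plus strand of GRCm38.p6, from RefSeq, from 250 to 16 bases before the start (chr14:20929148-20929382), with the CArG box at −227 to −218 and GGAATG at −143 to −138 in capitals.
Vcl: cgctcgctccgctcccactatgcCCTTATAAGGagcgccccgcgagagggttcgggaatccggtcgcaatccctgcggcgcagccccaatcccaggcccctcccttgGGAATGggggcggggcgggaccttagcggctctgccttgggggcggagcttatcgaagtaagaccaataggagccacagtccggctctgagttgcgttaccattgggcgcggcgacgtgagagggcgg

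Stretches of 30 bases show some of the other matches, the forkhead core because it is the core of the FOXF1 family's motif and the rest because a shared site lies near that start, in 5′ to 3′ order of the gene, with the motif in capitals, from RefSeq on GRCm38.p6. They are the forkhead core of Itgav (chr2:83724147-83724176, plus strand) and Itgb6 (chr2:60673683-60673712, minus strand), the ETS motif of Itga3 (chr11:95076785-95076814, minus strand) and Ilk (chr7:105736481-105736510, plus strand), and the AP-1 motif of Zyx (chr6:42349696-42349725, plus strand) and Actn4 (chr7:28962483-28962512, minus strand).
Itgav: attctTAAACAaaagtccctcagaagtgcc
Itgb6: tgaagttgctttTAAACAcagcttttctgc
Itga3: tttctctttccCCGGAAGgaaagcggagcc
Ilk: accaaaccgggCCGGAAGccaccgagtgaa
Zyx: agtgcggacagTGAGTCAgttctccagcac
Actn4: gccccgccttaTGAATCAttcatgacttgg
The forkhead core of Itgav starts 245 bases before an annotated start, while the shared site there lies 22 bp before it, and the shared site nearest to the Itgb6 start, at 60683568, lies outside the window.

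The wider adhesion pathway was described with 69 other genes, 23 ligands and 46 others that were mostly activators and adaptors. A shared site was present at 62 of the 69, beside 60.7% of all protein-coding genes, with a median of 5 sites per gene and 5.21 per 100 kb. Among the ligands 21 of 23 had a site, and among the others 41 of 46. In the top 1% of both lists there was a site at 1 of the 69, beside 1.77% of all protein-coding genes. This was Ltbp1, a matrix protein that holds latent TGF-beta for release by Itgav-containing integrins. Ltbp1 had 50 summits in replicate 1, 28 in replicate 2 and 25 shared sites, the highest 37.0 kb inside the gene with 192.8 and 113.6. No site was counted both for a member and for 1 of these 69 genes.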

How the data were processed

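FOXF1 was immunoprecipitated from 2 replicates, each a pool of 3 lungs, after fixation in 1% formaldehyde, with 10 µg of chromatin and 7 µg of antibody, per the labels' protocols. Peaks were called by the authors with MACS2 on mm10, per the submitters' processing notes, with a list per replicate called against the control, as the names of the deposited peaks show. A list for the input was not analysed here. The deposited values are −log10 significance at each summit; whether of a p-value or a q-value, and the aligner, options and read depth, were not given in the sources used here. With no counts deposited, no intervals for depth are given.

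Summits were paired, assigned to genes and counted with Python 3.11.15, numpy 2.4.6 and pandas 2.3.3; the code was tested on simulated data. Genes came from RefSeq, GRCm38.p6, the assembly of mm10, as spans without exons. Promoter sequences are RefSeq's. No genome sequence was used, so motifs at sites outside promoter windows were not searched.

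The genes, lists and settings were chosen with earlier results of these data known. By rule, all 36 genes are named with their number of sites, and the highest site is given for members with one in the top 5% of both lists. Pathway genes are named for a site in the top 1% of both. Itgad is named outside this rule, as an integrin subunit that is not among the 36. Other sites described were chosen after their values were seen. No test was run. Alternatives varied the pairing distance, score threshold, reach, window, replicate and motif.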

Additional observations from a re-analysis of the deposited data

How the results depend on the processing

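No paired analysis was possible because the 2 replicates form a single group and no result comes from a test. Most counts stayed within 1.5 times the reported ones; the exceptions follow. When each list was limited to its 10000 highest summits, 17 members and 32 pathway genes had a site (beside 16.6% of all protein-coding genes), the members held 47 sites with a median of 0, and 8 had one within 5 kb of an end (beside 7.01%). Counting sites inside the gene only, the median was 3.5 (0 over all protein-coding genes). At the top 5% instead of the top 1%, 9 members had a site (beside 7.38%). Leaving out a replicate gave 30 to 32 members and 64 to 65 pathway genes with a site (beside 65.3 to 72.4% of all protein-coding genes). The members then held 325 to 549 sites, with a median of 7.0 to 12.0 (beside 1 to 2). Within 5 kb of an end, 28 to 30 members had a site (beside 60.8 to 67.4%). In the top 1%, 4 to 5 members had one (beside 1.92 to 3.29%). The higher value of each came from replicate 1 alone. Of the 36 members, 1 changed its own count by over 1.5 times at a pairing limit of 50 bp, 2 at 200 bp, 6 at a score of at least 10, 28 with the 10000 highest summits, 4 at a reach of 20 kb, 10 inside the gene only, 3 without replicate 1 and 29 without replicate 2. Within 5 kb of an annotated start, 20 of the 25 genes with one had a site, and the share over all genes was not worked out. The motif share at member sites was not run, since it needs a genome sequence. Depth is unknown, so absence of a site is absence from these lists.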

Other observations

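Among the β partners of Itgav other than Itgb1, shared sites numbered 16 at Itgb5, 7 at Itgb6, 5 at Itgb3 and 2 at Itgb8, with 9 at Itgav itself. The highest scores were 205.5 and 116.3 at Itgb5 and 43.1 and 16.2 at Itgb8. Per 100 kb the densities were 12.57 at Itgb5, 4.36 at Itgb6, 6.02 at Itgb3 and 0.80 at Itgb8.

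Of the 29 members with a site, 22 had their highest site inside the gene and 7 outside, and in 15 it lay over 10 kb from either end. The 6 genes with most sites held 127 of the 272 (46.7%). Within any 10 kb the most sites at a member were 6, at Itga6, followed by 5 at Pxn, Ptk2 and Actn4.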
